A study of Homo sapiens with 12 samples.

Results

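The collagen genes were taken as every row of the count table whose symbol was COL, a number, A and a number, without rows named as numbered copies. This gave 44 of the 44659 genes listed, and 31 of them had enough counts to be tested. RNA had been sequenced from A375 cells, an established human melanoma line, in 4 groups of 3 libraries each. The controls (CC) were kept in DMSO, the drug solvent, over 72 h, and treated cells (TC) were given 500 nM vemurafenib, which inhibits BRAF, with 500 nM cobimetinib, which inhibits MEK, for 72 h (MAPKi). Persister cells (PC) had the same MAPKi and then 2 days of drug-free medium, and recovered cells (RC) had 9 days of it. All groups came from this single line, and CC had no drug-free period of its own. RNA was taken from the cytoplasmic fraction and then depleted of rRNA, although the paper's RNA-seq methods name total RNA. PC and RC were each harvested on a day of their own, so that day of harvest and group cannot be told apart for them. The labels name the libraries of a group as replicates and do not say that they came from separate cultures, so the p-values measure the spread between these libraries.

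Collagens are extracellular matrix proteins in which 3 chains wind into a helix, which needs glycine, the smallest residue, at regular spacing. Fibrillar collagens (types I, II, III, V, XI, XXIV and XXVII) build the load-bearing fibrils of connective tissue, and type IV chains build the network of basement membranes. Type VI chains form beaded filaments, types VIII and X form hexagonal networks, and fibril-associated collagens with interrupted helices (FACITs) decorate the surface of fibrils. Smaller classes are the transmembrane collagens, the multiplexins and the anchoring fibril collagen VII. Melanocytes in skin sit on a basement membrane rich in type IV collagen, and fibroblasts are the usual main source of collagens I and III.

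The repeat that the helix needs was visible in the coding sequence of the members. Short coding exons are shown for members with contrasting changes in these libraries, from canonical GENCODE v44 transcripts (GRCh38), with codons that start with GG (glycine codons) in capitals. The first 3 sequences are exons of exactly 54 bases with a glycine codon at the start of each group of 3 codons. COL4A1 and COL4A5 are shown because both encode type IV chains and moved in opposite directions in TC, and their coding exons 4 had 33 of 45 bases in common. COL4A2 coding exon 6 shows an interruption, where glycine codons follow each other at a different spacing.
COL5A2 coding exon 6, chr2:189097277-189097330, minus strand: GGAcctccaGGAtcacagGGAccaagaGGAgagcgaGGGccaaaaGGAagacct
COL5A1 coding exon 16, chr9:134754273-134754326, plus strand: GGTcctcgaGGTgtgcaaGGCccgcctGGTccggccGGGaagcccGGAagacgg
COL9A3 coding exon 5, chr20:62819929-62819982, plus strand: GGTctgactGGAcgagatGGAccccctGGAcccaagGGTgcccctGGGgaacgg
COL4A1 coding exon 4, chr13:110213782-110213826, minus strand: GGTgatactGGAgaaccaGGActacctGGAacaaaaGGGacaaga
COL4A5 coding exon 4, chrX:108563882-108563926, plus strand: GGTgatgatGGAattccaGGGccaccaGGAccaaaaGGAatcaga
COL4A2 coding exon 6, chr13:110428467-110428583, plus strand: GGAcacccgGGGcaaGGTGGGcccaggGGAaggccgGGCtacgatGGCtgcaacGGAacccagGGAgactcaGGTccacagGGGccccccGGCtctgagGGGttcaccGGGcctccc

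Across the 44 members, the median share of GGN codons was 24.3%, against 6.34% over 19749 coding genes, and the share of CCN (proline) codons was 16.6% against 5.51%. The 8 codons of lysine, aspartate, glutamate and asparagine took a median of 15.98% of collagen codons and 20.7% of all genes' codons. The longest run of consecutive triplets that opened with a glycine codon was 216 to 343 triplets in the 11 fibrillar genes and 38 to 66 in the 6 type IV genes. Fibrillar genes had 305 exons of 54 bases among 627 inner coding exons, and type IV genes 12 among 284. The 3 hexagonal network genes had no inner coding exon at all. These features are those of the reference genome.

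Total counts ran from 37773389 to 55567097 per library. Each level is a CPM value, the standard count scaled to library size, with TMM factors of 0.965 to 1.02. A count of 3, taken as the floor of a library, was worth 0.0534 to 0.0785 CPM, for counting error only. No library stood apart in these factors, and no pair of libraries looked like duplicates.

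The floor set aside a good part of the family. Of the 13 members under the filter of a mean scaled count of 10, 7 never exceeded 3 counts in any library, namely COL1A2, COL3A1, COL6A5, COL17A1, COL20A1, COL21A1 and COL23A1, and COL3A1 and COL6A5 were at 0 in all 12 libraries. The other 6 were COL4A6, COL6A6, COL8A2, COL10A1, COL22A1 and COL26A1, whose highest count in a library was between 4 and 15. COL1A2 encodes the partner chain of COL1A1 in type I collagen and COL3A1 encodes collagen III, so collagen III and the second chain of collagen I were at the floor in every group.

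Summed over the 44 genes, collagens took 2044, 1866 and 1911 CPM in CC libraries, 1725, 2124 and 2492 in TC libraries, 2762, 2814 and 3026 in PC libraries, and 1938, 1773 and 1744 in RC libraries. The CC and TC libraries overlapped, and every PC library was above every other library. Basement membrane network genes summed to 1191, 1076 and 1105 CPM in CC libraries, 154, 163 and 161 in TC libraries, 189.9, 188 and 173 in PC libraries, and 1122, 1029.8 and 992 in RC libraries. Fibrillar genes summed to 134, 112 and 110.3 CPM in CC libraries, 489, 645 and 849 in TC libraries, 891, 966 and 1012 in PC libraries, and 143, 129 and 126 in RC libraries. The mean class sum in TC was therefore 0.142 times the CC mean for the basement membrane network and 5.56 times for fibrillar genes, without overlap in either. FACIT genes summed to 454, 460.4 and 459 CPM in CC libraries, 819, 1026 and 1161 in TC libraries, 1441, 1437 and 1605 in PC libraries, and 483, 438 and 447 in RC libraries. The basement membrane network gave 57.9% of all collagen counts in CC, 7.67% in TC, 6.43% in PC and 57.6% in RC. FACIT genes gave 23.6%, 47.4%, 52.1% and 25.1% in the same order, and fibrillar genes 6.11%, 30.9%, 33.3% and 7.29%. In TC, single genes made up most of the fibrillar and FACIT sums. COL5A2 had a mean of 81.5 CPM in CC and 630.5 in TC, beside mean fibrillar sums of 118.8 and 661. COL9A3 had a mean of 226.8 CPM in CC and 879 in TC, beside mean FACIT sums of 457.8 and 1002. The rise of these 2 sums therefore does not describe the other members of each class. No test was made of these sums.

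**Figure D1:**
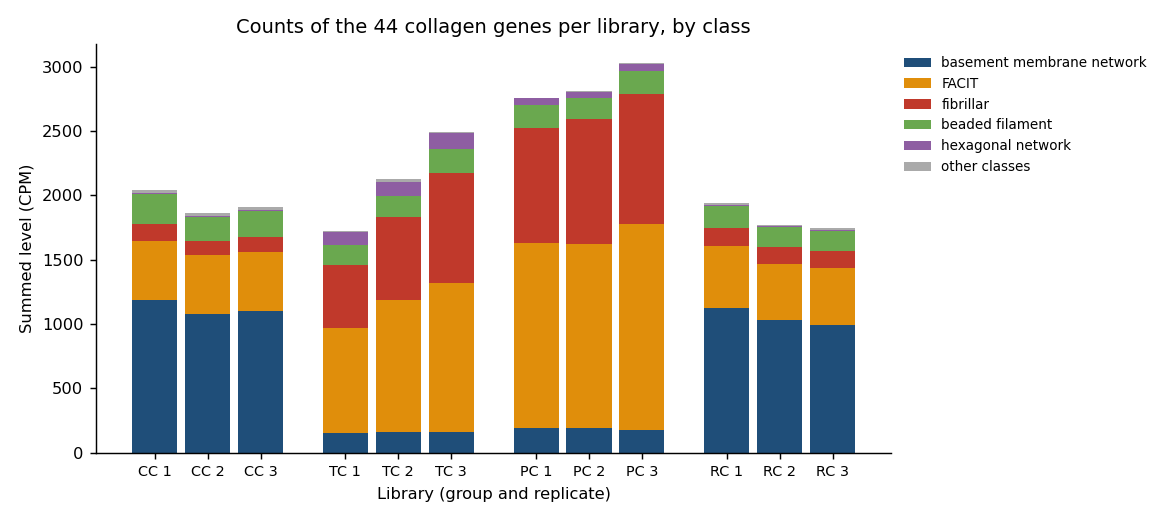
Summed level in CPM (y axis) of the 44 collagen genes in each of the 12 libraries (x axis), stacked by structural class. Dark blue (basement membrane network) fills 57.7% to 58.2% of the CC bars and 6.46% to 8.90% of the TC bars, while red (fibrillar) and orange (FACIT) grow in TC and PC. COL5A2 alone gave a mean of 29.5% of collagen counts in TC, and COL9A3 alone 41.6%.

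The order of the members by level was compared per kb of canonical transcript. In CC the highest level was that of COL4A2 with 119 ± 7.68 CPM per kb (SD, n = 3), followed by COL9A3 with 90.8 ± 2.93 and COL4A1 with 50.3 ± 2.34, and these 3 did not overlap. COL6A1 was next with 30.9 ± 3.62. COL19A1 and COL6A2, both at 22.7, overlapped and were not separated by their spread. In TC the order opened with COL9A3 at 352 ± 61.7 CPM per kb and COL5A2 at 92.3 ± 25.8, and COL4A2 was in position 6. In PC the same genes led, with 542 ± 36.97 and 130.3 ± 8.62 CPM per kb. In RC the order again opened with COL4A2 at 104 ± 6.82 and COL9A3 at 90.8 ± 7.89 CPM per kb, which overlapped.

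The comparison of TC with CC asked what 72 h of MAPKi did to the family. Collagen transcripts moved in both directions: 13 of the 31 tested were higher in TC (33.2% of all 15916 genes tested were higher) and 12 were lower (34.7% of all genes). Beyond 1.5-fold, 12 were higher (16.1% of all genes) and 10 were lower (19.3%). The median log2 fold change of the 31 was 0.18, against -0.02 over all genes tested. Named by class, 5 of 9 fibrillar genes were higher and 2 lower, 4 of 5 type IV genes were lower and 1 higher, 4 of 7 FACIT genes were higher and 2 lower, and 1 of 3 beaded filament genes was lower. An adjusted p is from the edgeR quasi-likelihood test with Benjamini-Hochberg adjustment over all genes tested.

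**Figure D2:**
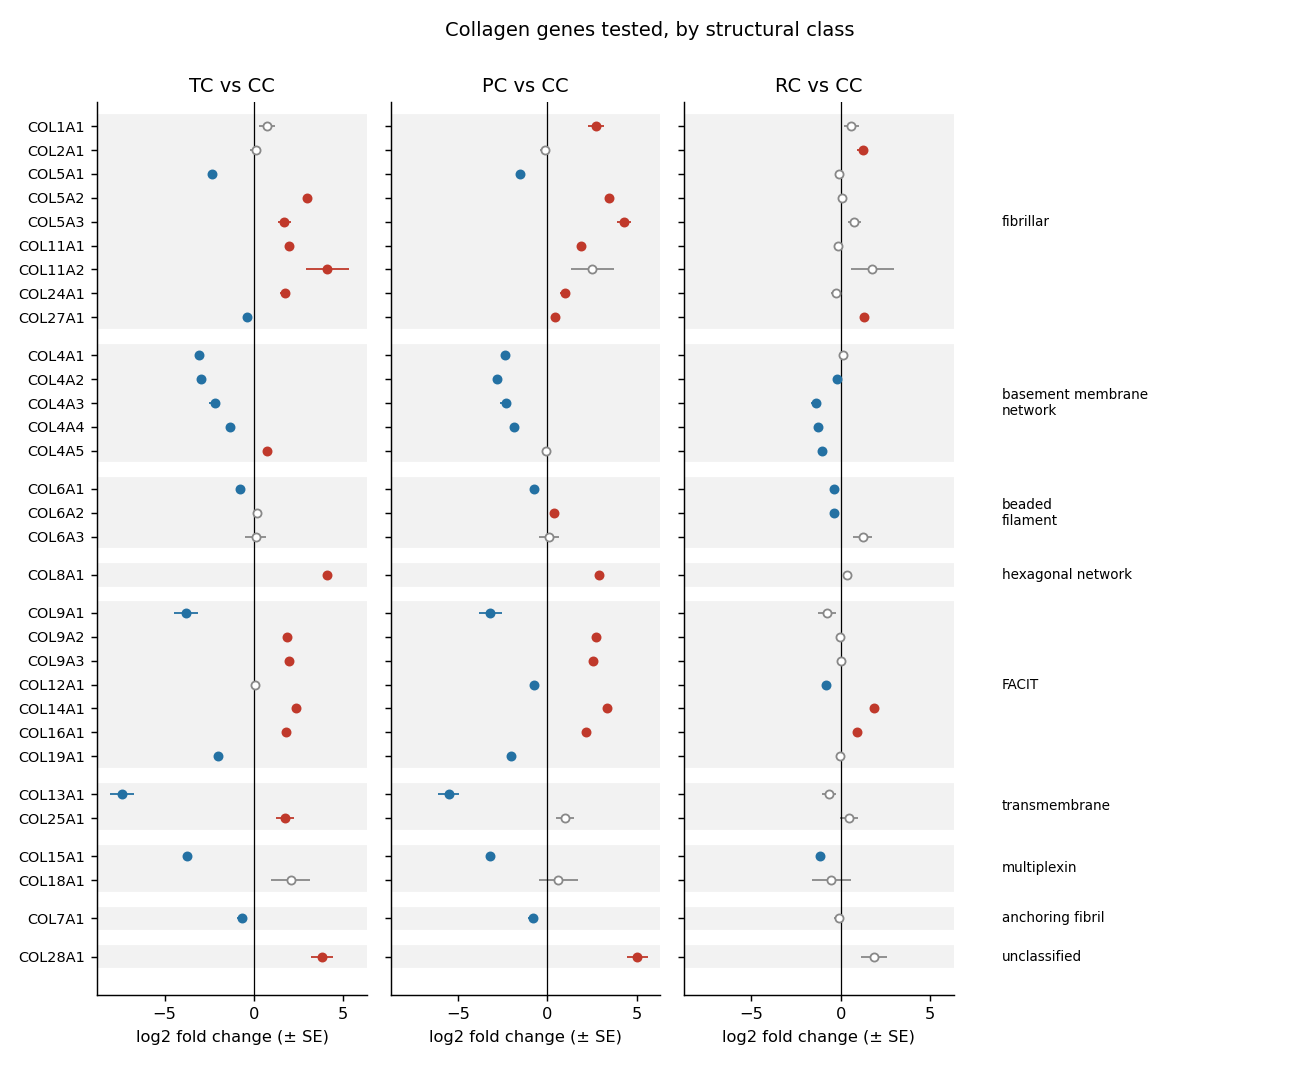
log2 fold change ± SE (x axis) of the 31 tested collagen genes (y axis, shaded by class) in TC, PC and RC against CC, from the edgeR fit. Filled red is higher and filled blue lower at an adjusted p under 0.05, and open grey did not pass. The TC and PC panels spread from -7.41 to 5.03 and the RC panel from -1.38 to 1.86.

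Among fibrillar genes, COL5A2 stood out by level. It encodes the second chain of collagen V, which sets the diameter of collagen fibrils (chromosome 2, 189031898 to 189225312, minus strand). COL5A2 was at 88.5, 80.4 and 75.7 CPM in CC libraries, 465, 612 and 815 in TC libraries, 828, 897 and 945 in PC libraries, and 92.96, 80.5 and 83.7 in RC libraries. The TC and PC libraries did not overlap with the others, and RC overlapped with CC. In TC it was 7.74-fold higher (log2 fold change 2.95, SE 0.17, adjusted p 1.6e-08). In PC it was 10.9-fold higher (log2 fold change 3.45, SE 0.17, adjusted p 5.2e-09).

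COL5A1 encodes the main chain of collagen V, which usually joins COL5A2 in the same molecule, and it moved the other way (chromosome 9, 134641803 to 134844843, plus strand). COL5A1 was at 31.96, 19.8 and 22.6 CPM in CC libraries, 4.56, 4.65 and 5.37 in TC libraries, 7.69, 8.49 and 9.02 in PC libraries, and 24.6, 23.1 and 20.8 in RC libraries. All TC and PC libraries were below all CC and RC libraries. In TC it was 5.09-fold lower (log2 fold change -2.35, SE 0.16, adjusted p 9.7e-08). In PC it was 2.95-fold lower (log2 fold change -1.56, SE 0.16, adjusted p 2.5e-06).

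COL5A3, a chain of collagen V with a narrower tissue range, was low in CC and reached its highest level after the drug was removed. COL5A3 was at 1.58, 2.51 and 1.16 CPM in CC libraries, 2.67, 6.34 and 7.87 in TC libraries, 34.3, 34.5 and 33.7 in PC libraries, and 3.84, 2.49 and 2.59 in RC libraries. The PC libraries lay close together and far above the rest. Against CC it was 3.23-fold higher in TC (log2 fold change 1.69, SE 0.36, adjusted p 0.0012). Against CC it was 19.5-fold higher in PC (log2 fold change 4.29, SE 0.38, adjusted p 7.8e-07). PC also exceeded TC (log2 fold change 2.60, SE 0.35, adjusted p 0.00023).

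COL11A1, a chain of collagen XI that seeds fibrils in cartilage and other tissues, was at 2.07 to 2.89 CPM in CC, 7.33 to 11.6 in TC, 7.48 to 9.97 in PC and 2.03 to 2.51 in RC. TC and PC did not overlap with CC. The rise in TC was 3.82-fold (log2 fold change 1.94, SE 0.20, adjusted p 3.1e-06). COL24A1, a minor fibrillar chain, was at 0.381 to 0.888 CPM in CC, 2.05 to 2.38 in TC and 1.27 to 1.44 in PC. It was 3.32-fold higher in TC (log2 fold change 1.73, SE 0.27, adjusted p 0.00012). Its RC libraries, at 0.492 to 0.640, lay within the CC range.

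COL1A1, the main chain of collagen I, stayed low everywhere. COL1A1 was at 0.765, 0.587 and 0.296 CPM in CC libraries, 0.751, 0.639 and 1.31 in TC libraries, 2.01, 4.87 and 3.84 in PC libraries, and 0.960, 0.997 and 0.530 in RC libraries. Only the PC libraries were all above CC. In PC it was 6.52-fold higher (log2 fold change 2.70, SE 0.44, adjusted p 0.00015). COL2A1, the cartilage collagen, was called in RC only among the comparisons with CC. Its RC libraries had 1.65, 1.99 and 1.83 CPM and its CC libraries 0.888, 0.610 and 0.846. The groups did not overlap (log2 fold change 1.22, SE 0.30, adjusted p 0.0073).

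COL27A1, a fibrillar chain of cartilage and a gene on chromosome 9 (114155537 to 114312511, plus strand), was among the 3 members called in opposite directions in different groups, with COL4A5 and COL6A2. COL27A1 was at 6.19, 5.38 and 7.004 CPM in CC libraries, 5.03, 4.57 and 4.29 in TC libraries, 8.501, 8.26 and 8.51 in PC libraries, and 15.9, 16.3 and 13.7 in RC libraries. Each group lay outside the range of the others. It was lower in TC (log2 fold change -0.42, SE 0.12, adjusted p 0.0083). It was higher in PC (log2 fold change 0.44, SE 0.12, adjusted p 0.0056). It was 2.47-fold higher in RC (log2 fold change 1.30, SE 0.12, adjusted p 2.7e-05). The call in TC was lost when only the 2 groups compared entered the fit (log2 fold change -0.41, adjusted p 0.065).

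COL11A2, the second chain of collagen XI, kept its call in TC only while TC replicate 2 was in the fit. All TC libraries were above all CC libraries, which had 2, 5 and 9 counts. Its row had 196 counts in TC replicate 2 against 32 and 27 in the other TC libraries, and 61 in RC replicate 2 against 3 and 2. TC differed from CC (log2 fold change 4.10, SE 1.19, adjusted p 0.0086). Without TC replicate 2 the log2 fold change was 2.44 (adjusted p 0.067). The table also lists 6 numbered copies of this gene, with 27 to 374 counts each, so that its reads could be split. With the copies summed, an alternative chosen after the data were seen, the log2 fold change was 2.91 (adjusted p 0.0074).

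Among the classes, type IV collagen had the largest change of summed CPM in TC, taken as a difference. By ratio the hexagonal network changed more, with a TC mean 16.8 times the CC mean. COL4A1 and COL4A2 encode the chains of the common basement membrane collagen and lie head to head on chromosome 13, COL4A1 on the minus strand (110148963 to 110307157) and COL4A2 on the plus strand. Their RefSeq start sites are separated by 126 bases, and this shared segment is shown because both genes fell together. Capitals mark a CCAAT box (CCAAT, either strand) and a GC box (GGGCGG, either strand).
COL4A1/COL4A2 segment, GRCh38, chr13:110307158-110307283, plus strand: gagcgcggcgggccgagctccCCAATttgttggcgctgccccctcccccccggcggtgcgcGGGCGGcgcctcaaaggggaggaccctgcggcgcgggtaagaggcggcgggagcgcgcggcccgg

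Of all 35116 RefSeq promoter windows (250 bases before to 50 after the start), 44.95% held a GC box and 34.6% a CCAAT box. Of the 44 windows that 32 members had, 24 held a GC box and 14 a CCAAT box. The AP-1 motif (TGAGTCA or TGACTCA) stood in 4.95% of all windows and in none of the 44 windows of members, and the E-box CACGTG in 7.26% and none. Members without a window included COL5A2, COL6A1, COL8A1, COL9A3 and COL14A1, and some members had more than 1 window. At such low shares over all windows, absence from these 44 windows says little about the family. These matches describe letters in a short window only. The other type IV pairs were also head to head, with 418 bases between the starts of COL4A4 and COL4A3 and 379 bases between those of COL4A6 and COL4A5.

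COL4A1 was at 342, 332 and 312 CPM in CC libraries, 37.2, 40.9 and 37.8 in TC libraries, 64.8, 66.4 and 60.7 in PC libraries, and 388, 359.6 and 345 in RC libraries. COL4A2 was at 819, 720.0 and 762 CPM in CC libraries, 97.1, 101 and 102 in TC libraries, 111, 109.8 and 99.9 in PC libraries, and 721, 658 and 636 in RC libraries. In both genes all TC and PC libraries were below all CC and RC libraries. COL4A1 was 8.52-fold lower in TC (log2 fold change -3.09, SE 0.07, adjusted p 2.8e-11). COL4A2 was 7.69-fold lower in TC (log2 fold change -2.94, SE 0.07, adjusted p 3.7e-11). Between TC and PC they parted. COL4A1 was 1.66-fold higher in PC than in TC (log2 fold change 0.73, SE 0.07, adjusted p 1.7e-05). COL4A2 was not called (log2 fold change 0.10, SE 0.07, adjusted p 0.34).

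COL4A3 and COL4A4 encode chains of the type IV network of kidney, lung and other specialised basement membranes, and lie head to head on chromosome 2. COL4A4 was at 19.99, 15.6 and 18.2 CPM in CC libraries, 7.28, 6.87 and 6.70 in TC libraries, 5.96, 4.30 and 4.69 in PC libraries, and 8.72, 6.91 and 6.83 in RC libraries. All TC, PC and RC libraries were below CC. It was 2.58-fold lower in TC (log2 fold change -1.37, SE 0.15, adjusted p 4.8e-06). It remained 2.40-fold lower in RC (log2 fold change -1.26, SE 0.15, adjusted p 8.6e-05). COL4A3 was far lower, at 1.81 to 2.12 CPM in CC, 0.337 to 0.537 in TC, 0.278 to 0.575 in PC and 0.665 to 0.872 in RC. It was 4.61-fold lower in TC (log2 fold change -2.20, SE 0.30, adjusted p 3.4e-05). Exons of COL4A3 share 6.82% of their bases with MFF-DT on the opposite strand, which had 772 counts against 474 for COL4A3, and strandedness of the counting was not stated.

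COL4A5, the X-linked partner of COL4A3 and COL4A4 (chromosome X, 108439838 to 108697545, plus strand), was the type IV member that was higher in TC. COL4A5 was at 7.82, 6.71 and 9.73 CPM in CC libraries, 11.7, 13.6 and 14.6 in TC libraries, 7.85, 7.45 and 7.68 in PC libraries, and 3.45, 4.40 and 3.74 in RC libraries. TC lay above CC and RC lay below it, without overlap. In TC it was 1.64-fold higher (log2 fold change 0.72, SE 0.15, adjusted p 0.00092). In RC it was 2.09-fold lower (log2 fold change -1.06, SE 0.15, adjusted p 0.00026).

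Collagen VI forms beaded filaments around most cells, and COL6A1 and COL6A2 encode chains of it. COL6A1 was at 146, 116 and 128 CPM in CC libraries, 74.2, 75.4 and 80.1 in TC libraries, 80.9, 78.7 and 70.1 in PC libraries, and 104, 95.9 and 94.4 in RC libraries. TC and PC lay below CC. COL6A1 was 1.70-fold lower in TC (log2 fold change -0.76, SE 0.09, adjusted p 7.6e-06). COL6A2 was at 85.8, 68.97 and 79.97 CPM in CC libraries, 75.01, 85.2 and 106 in TC libraries, 104, 91.1 and 104 in PC libraries, and 64.2, 57.9 and 60.4 in RC libraries. COL6A2 lies downstream of COL6A1 on the plus strand of chromosome 21 and did not follow it: its TC libraries overlapped with CC (log2 fold change 0.18, SE 0.12, adjusted p 0.19). It was higher in PC (log2 fold change 0.35, SE 0.12, adjusted p 0.02). It was lower in RC (log2 fold change -0.36, SE 0.12, adjusted p 0.031). Leaving out a single CC, PC or RC library ended these calls in 3 and 4 of the 12 cases. COL6A3, the large chain of the same molecule, was at 0.0904 to 0.481 CPM and was not called.

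COL8A1 encodes a chain of the hexagonal network collagen VIII, known from vessel walls and Descemet's membrane (chromosome 3, 99638475 to 99799226, plus strand). COL8A1 was at 6.76, 7.79 and 5.54 CPM in CC libraries, 108, 112 and 126 in TC libraries, 47.7, 45.2 and 54.5 in PC libraries, and 8.72, 8.61 and 7.75 in RC libraries. TC lay above PC, and both lay above CC without overlap. It was 17.3-fold higher in TC (log2 fold change 4.11, SE 0.13, adjusted p 1.6e-10). In PC it was 2.35-fold lower than in TC (log2 fold change -1.24, SE 0.11, adjusted p 1.3e-05). Its partner COL8A2 never passed 4 counts in a library.

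FACIT genes held large changes in both directions. COL9A3 encodes a chain of collagen IX, which coats cartilage fibrils (chromosome 20, 62816244 to 62841159, plus strand). COL9A3 was at 228, 233 and 219 CPM in CC libraries, 715, 902 and 1021 in TC libraries, 1302, 1298 and 1459.5 in PC libraries, and 249, 214 and 217 in RC libraries. TC and PC did not overlap with CC, and CC and RC overlapped. It was 3.88-fold higher in TC (log2 fold change 1.96, SE 0.12, adjusted p 2.2e-08). It was 5.97-fold higher in PC (log2 fold change 2.58, SE 0.12, adjusted p 2.7e-09). Its exons share 3.2% of bases with TCFL5.

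COL9A2, a second chain of collagen IX, followed at a lower level. COL9A2 was at 3.997, 3.25 and 4.51 CPM in CC libraries, 12.1, 14.9 and 15.5 in TC libraries, 26.2, 23.9 and 26.5 in PC libraries, and 4.36, 3.70 and 3.35 in RC libraries. It was 3.61-fold higher in TC (log2 fold change 1.85, SE 0.15, adjusted p 2.7e-07). COL9A1, the remaining chain of collagen IX, fell: it had 90 counts over the CC libraries, 6 over TC and 9 over PC. TC differed from CC (log2 fold change -3.81, SE 0.68, adjusted p 0.00033). With so few counts, the ratio of CC to TC was 14.9 with a 95% counting interval of 6.59 to 41.7.

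COL14A1 and COL16A1 are FACITs that bind fibrils of collagen I and II. COL14A1 was at 0.740, 0.587 and 0.846 CPM in CC libraries, 3.14, 4.06 and 3.99 in TC libraries, 7.69, 7.65 and 6.41 in PC libraries, and 2.93, 2.74 and 2.25 in RC libraries. COL16A1 was at 9.72, 13.7 and 10.3 CPM in CC libraries, 37.9, 38.9 and 40.3 in TC libraries, 48.7, 49.9 and 51.7 in PC libraries, and 19.97, 21.6 and 20.9 in RC libraries. In both genes every TC, PC and RC library was above every CC library. COL14A1 was 5.13-fold higher in TC (log2 fold change 2.36, SE 0.19, adjusted p 3.6e-07). COL16A1 was 3.47-fold higher in TC (log2 fold change 1.80, SE 0.11, adjusted p 2.9e-08). In RC both were still called, at 3.63-fold (adjusted p 4.2e-05) and 1.85-fold (adjusted p 0.00011).

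COL19A1 encodes a FACIT described in muscle and brain (chromosome 6, 69866556 to 70212468, plus strand), and was among the most abundant collagens here. COL19A1 was at 195, 197 and 204 CPM in CC libraries, 37.3, 50.01 and 59.00 in TC libraries, 47.8, 46.9 and 50.9 in PC libraries, and 197, 187 and 193 in RC libraries. TC and PC lay below CC, and RC overlapped with CC. It was 4.07-fold lower in TC (log2 fold change -2.02, SE 0.13, adjusted p 3.4e-08). COL12A1, a FACIT of dense connective tissue, was at 11.8 to 19.7 CPM in CC and 12.96 to 21.3 in TC, which overlapped, and at 8.21 to 10.6 in PC. It was 1.67-fold lower in PC (log2 fold change -0.74, SE 0.20, adjusted p 0.0058).

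**Figure D3:**
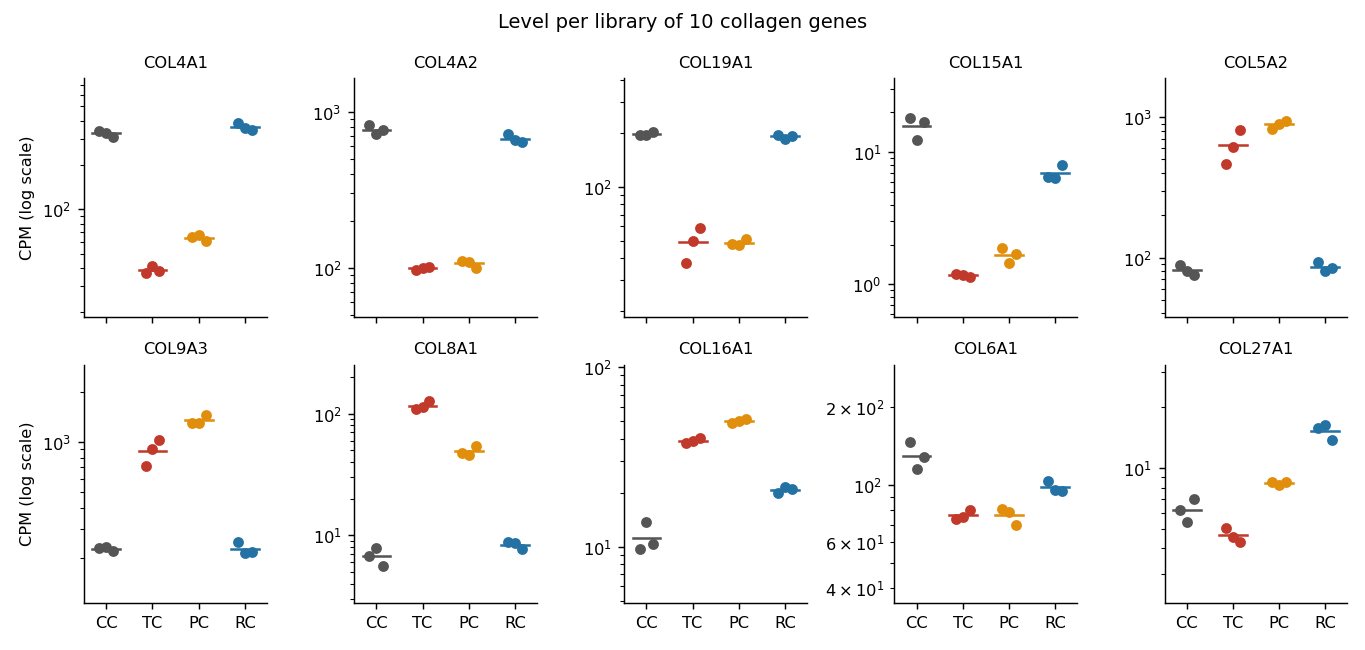
Level in CPM on log axes (y) of 10 collagen genes in each library, by group (x), with a line at each group mean. COL4A1, COL4A2, COL19A1 and COL15A1 are low in TC and PC, COL5A2, COL9A3, COL8A1 and COL16A1 are high there, COL6A1 shifts by 1.70-fold and COL27A1 is highest in RC.

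COL13A1 is a transmembrane collagen of cell-matrix contacts and the neuromuscular junction. It had 396 counts over the CC libraries, 2 over TC and 8 over PC. COL13A1 was at 3.18, 3.09 and 2.75 CPM in CC libraries, 0, 0 and 0.0373 in TC libraries, 0, 0.0652 and 0.116 in PC libraries, and 2.24, 1.94 and 1.57 in RC libraries. TC differed from CC (log2 fold change -7.41, SE 0.68, adjusted p 1.1e-06). The ratio of CC to TC was 197 with a 95% counting interval of 54.2 to 1632, so its size was poorly fixed at this depth. COL25A1, a transmembrane collagen of neurons, was at 0.0678 to 0.395 CPM in CC and 0.578 to 0.777 in TC. It was 3.31-fold higher in TC (log2 fold change 1.73, SE 0.50, adjusted p 0.0085).

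COL15A1 is a multiplexin of basement membranes whose end fragment resembles endostatin (chromosome 9, 98943179 to 99070792, plus strand). COL15A1 was at 18.1, 12.3 and 16.9 CPM in CC libraries, 1.19, 1.18 and 1.14 in TC libraries, 1.88, 1.46 and 1.71 in PC libraries, and 6.47, 6.39 and 7.98 in RC libraries. All TC, PC and RC libraries were below CC. It was 13.5-fold lower in TC (log2 fold change -3.75, SE 0.18, adjusted p 4.1e-09). It was 2.27-fold lower in RC (log2 fold change -1.18, SE 0.16, adjusted p 0.0002). COL18A1, the other multiplexin, had 13.5 CPM in replicate 2 of TC, against 1.84 and 3.06 in the other TC libraries. It had 3.84 in replicate 2 of CC, against 0.271 and 0.296 in the other CC libraries. It was not called in any comparison, and its exons share 18.5% of their bases with SLC19A1 on the opposite strand.

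COL7A1, the anchoring fibril collagen that ties epidermis to dermis, was at 1.99 to 4.81 CPM in CC and 1.79 to 2.69 in TC, which overlapped. It was called lower in TC (log2 fold change -0.68, SE 0.28, adjusted p 0.045). This call was lost in 13 alternatives, among them leaving out CC replicate 2 (log2 fold change -0.44). COL28A1, a collagen outside the main classes that is known from peripheral nerve, had 4 counts over the CC libraries, 61 over TC and 138 over PC. TC differed from CC (log2 fold change 3.82, SE 0.62, adjusted p 0.00014). The ratio of TC to CC was 15.3 with a 95% counting interval of 5.69 to 58.1.

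The comparison of PC with CC asked what was left 2 days after drug removal. Again 13 collagen genes were higher (33.2% of all genes tested) and 12 lower (35.9%), and beyond 1.5-fold 10 were higher (17.2%) and 10 lower (19.9%). This comparison shares its CC libraries with that of TC. The differences between TC and PC themselves were tested: 11 collagen genes were higher in PC than in TC (12.2% of all genes) and 4 were lower (12.5%). The higher ones were COL1A1, COL4A1, COL5A1, COL5A2, COL5A3, COL9A2, COL9A3, COL14A1, COL15A1, COL16A1 and COL27A1, and the lower ones COL4A4, COL4A5, COL8A1 and COL12A1. Of these 15 calls, 5 were lost when a library was left out or under another setting, namely those of COL4A4, COL5A2, COL12A1, COL15A1 and COL16A1.

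Whether levels were back after 9 days was asked by setting RC beside CC. Here 4 members were higher (18.2% of all genes tested) and 8 lower (19.1%), and 3 (1.35%) and 3 (2.52%) beyond 1.5-fold. The 3 lower beyond 1.5-fold became 1 without CC replicate 1 and 1 without RC replicate 1. The higher ones were COL2A1, COL14A1, COL16A1 and COL27A1. The lower ones were COL4A2, COL4A3, COL4A4, COL4A5, COL6A1, COL6A2, COL12A1 and COL15A1. Among type IV genes, COL4A1 was not called (log2 fold change 0.15, SE 0.07, adjusted p 0.1). For COL4A2 the difference was small (log2 fold change -0.19, SE 0.07, adjusted p 0.047). That call was lost in 13 alternatives, with log2 fold changes from -0.19 to -0.14. COL5A2, COL8A1 and COL9A3, which had risen most in CPM in TC, were not called in RC, at log2 fold changes of 0.07 (SE 0.16), 0.32 (SE 0.12) and -0.00 (SE 0.11).

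RC was also compared with PC, to follow the change from day 2 to day 9. In RC 13 members were higher (35.7% of all genes) and 13 lower (34.2%). COL4A2 was 6.29-fold higher in RC (log2 fold change 2.65, SE 0.07, adjusted p 8.3e-11). COL5A2 was 10.4-fold lower in RC (log2 fold change -3.38, SE 0.17, adjusted p 5.4e-09). COL13A1 was 29.5-fold higher in RC (log2 fold change 4.88, SE 0.57, adjusted p 7.8e-06). The 5 members without a call were COL6A3, COL11A2, COL12A1, COL18A1 and COL25A1.

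Chains that assemble into the same molecule were compared as the log2 ratio of their counts in each library, with 0.5 added to each count. With 3 libraries against 3, the exact permutation test (two-sided) cannot go below 0.10, and over 35 tests of 7 pairs the smallest adjusted value was 0.23. The COL5A1/COL5A2 ratio was -1.74 ± 0.28 in CC, -6.98 ± 0.29 in TC, -6.73 ± 0.02 in PC and -1.91 ± 0.10 in RC (log2, SD, n = 3). Its TC and PC libraries did not overlap with CC and RC (exact permutation p 0.10 for TC against CC). The COL4A1/COL4A2 ratio moved less but without overlap between PC and TC, from -1.37 ± 0.07 in TC through -1.22 ± 0.09 in CC and -0.88 ± 0.01 in RC to -0.74 ± 0.03 in PC. COL6A1/COL6A2 went from 0.73 ± 0.04 in CC to -0.20 ± 0.20 in TC and -0.38 ± 0.18 in PC, and was 0.69 ± 0.04 in RC. COL9A2/COL9A3 differed between TC and CC by -0.08, less than the spread in CC (SD 0.28).

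**Figure D4:**
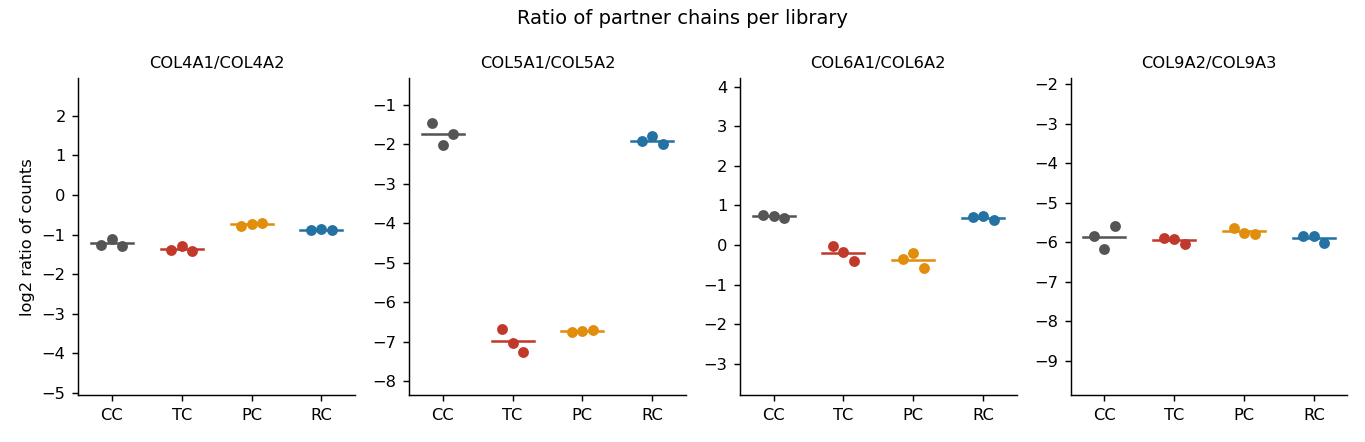
log2 ratio of the counts of 2 partner chains (y axis, same span in each panel) in each library, by group (x axis), with a line at each group mean. The COL5A1/COL5A2 panel drops by 5.24 in TC and 4.98 in PC against CC, while the group means of COL4A1/COL4A2 lie between -1.37 and -0.74 and those of COL9A2/COL9A3 between -5.95 and -5.73.

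Genes that make, trim and sense collagen were counted from lists, beside the background of 33.2% higher and 34.7% lower over all genes in TC. Of 20 tested genes of collagen hydroxylation, folding and export, 9 were higher and 7 lower in TC, with a median log2 fold change of 0.02 against -0.02 over all genes. P3H2, a prolyl 3-hydroxylase known to act on type IV collagen, was at 32.7 ± 0.899 CPM in CC and 172 ± 61.8 in TC (log2 fold change 2.39, SE 0.21, adjusted p 6.7e-07). COLGALT2, which adds galactose to hydroxylysine, fell from 24.3 ± 3.54 to 5.65 ± 0.584 CPM (log2 fold change -2.10, SE 0.13, adjusted p 2.4e-08). P3H3, of the same family as P3H2, was at 99.3 ± 13.2 and 252.4 ± 33.7 CPM (log2 fold change 1.35, SE 0.11, adjusted p 4.2e-07), and COLGALT1, the other galactosyltransferase, at 301 ± 32.4 and 167 ± 31.4 (log2 fold change -0.85, SE 0.13, adjusted p 7e-05).

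Of 10 tested genes of procollagen processing and crosslinking, 5 were higher and 3 lower in TC, with a median log2 fold change of 0.58. LOXL4, a lysyl oxidase-like enzyme that crosslinks collagen, dropped to 65.7 ± 11.5 CPM in TC and 37.4 ± 4.37 in PC from a CC level of 1828 ± 245, with 639.8 ± 34.2 in RC. TC differed from CC (log2 fold change -4.80, SE 0.15, adjusted p 1.7e-10). PCOLCE and PCOLCE2 both enhance removal of the procollagen C-propeptide. PCOLCE went from 209 ± 13.99 to 63.6 ± 7.48 CPM in TC (log2 fold change -1.71, SE 0.10, adjusted p 1.4e-08), and PCOLCE2 from 37.4 ± 4.98 to 324 ± 112 (log2 fold change 3.12, SE 0.23, adjusted p 1.6e-07). TLL2, a tolloid-like protease, was at 0.791 ± 0.234 and 4.29 ± 1.82 CPM (log2 fold change 2.44, SE 0.32, adjusted p 2.7e-05).

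Of 7 tested collagen receptors, 5 were higher and 2 lower in TC, with a median log2 fold change of 0.80. ITGA11, an integrin chain for fibrillar collagen with few counts, was at 0.304 ± 0.127 CPM in CC and 1.24 ± 0.787 in TC (log2 fold change 2.02, SE 0.47, adjusted p 0.0023). ITGA2 and ITGA1 encode the integrin chains that bind fibrillar and network collagens. ITGA2 was at 34.6 ± 8.06 CPM in CC and 218 ± 41.6 in TC (log2 fold change 2.65, SE 0.17, adjusted p 5.2e-08), and ITGA1 at 22.7 ± 1.58 and 66.5 ± 13.3 (log2 fold change 1.55, SE 0.12, adjusted p 2.5e-07). ITGA10, the chain of a cartilage collagen receptor, was at 45.2 ± 9.04 and 0.541 ± 0.179 CPM (log2 fold change -6.35, SE 0.23, adjusted p 4.5e-10). DDR2, a receptor kinase for fibrillar collagen, was at 289 ± 53.6 and 58.9 ± 2.47 CPM (log2 fold change -2.30, SE 0.15, adjusted p 4e-08).

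Among 14 tested partners of type IV collagen in basement membranes, 8 were lower and 4 higher in TC. Their median log2 fold change there was -0.72. For PC against CC, 11 of these partners were lower and 3 higher, and their median was -1.42. Over all genes tested, 35.9% were lower and 33.2% higher in PC, and the median was -0.04. LAMA1, a laminin chain, fell from 232 ± 44.05 to 12.7 ± 0.570 CPM in TC (log2 fold change -4.19, SE 0.14, adjusted p 3.2e-10), and LAMB1 from 998 ± 101 to 273 ± 26.2 (log2 fold change -1.87, SE 0.09, adjusted p 3.1e-09). LAMA3, another laminin chain with few counts, fell from 2.78 ± 0.599 to 0.270 ± 0.145 CPM (log2 fold change -3.33, SE 0.35, adjusted p 4e-06). HSPG2, the proteoglycan perlecan, went the other way, from 288 ± 95.8 to 563 ± 117 CPM (log2 fold change 0.97, SE 0.21, adjusted p 0.0014).

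The label of a melanoma line was checked against marker lists. Melanocyte lineage genes summed to 1859 to 2049 CPM in CC, 7268 to 10499 in TC, 3694 to 5323 in PC and 1662 to 1722 in RC, and none of the 10 was at the floor in any group. In TC 6 of them were higher, among them DCT (log2 fold change 3.99, SE 0.20, adjusted p 5.6e-09) and PMEL (log2 fold change 3.13, SE 0.26, adjusted p 4.3e-07), and S100B was lower (log2 fold change -0.91, SE 0.09, adjusted p 2.2e-06). Fibroblast markers summed to 191 to 203 CPM in CC and 149 to 196 in TC, and 2 of the 10 were at 0 in every group. Of 6 fibroblast markers tested, 2 were higher and 4 lower in TC, among them LUM (log2 fold change -2.04, SE 0.13, adjusted p 5.2e-08), PDGFRA (log2 fold change -1.61, SE 0.24, adjusted p 6.9e-05) and FAP (log2 fold change 2.09, SE 0.18, adjusted p 6.2e-07). DCN, a fibroblast marker of this list, was at 0.0235 CPM in CC and 0.0249 in TC. Only 4 of the 10 fibroblast markers in CC, and 2 in TC, had at most 3 counts in every library, so most of the list was above the floor. Keratinocyte markers summed to 42.5 to 53.6 CPM in CC and 88.9 to 94.8 in TC, which is KRT10 in the main (45.9 and 91.8), while KRT5 was at 0 in both. Of 3 keratinocyte markers tested, 2 were higher and 1 was lower in TC. Endothelial markers summed to at most 12.2 CPM in any library, and both that were tested were lower in TC. These were VWF (log2 fold change -0.99, SE 0.19, adjusted p 0.00046) and KDR, which was at 6.42 ± 0.402 CPM in CC and 0.0344 ± 0.0396 in TC, where its mean was under the floor (adjusted p 1.8e-07). The part of these shifts in the collagen levels was not tested. In bulk RNA, fewer cells that express a gene and less RNA per cell cannot be told apart.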

How the data were processed

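RNA-seq counts of 12 A375 libraries (4 groups of 3) were used. The deposited values are raw read counts per gene, made by the authors; the submitters' processing notes name fastp 0.20.1, HISAT2 2.2.1, HTSeq 0.13.5 and the build GRCh38.p13. Strandedness of counting was not given in the sources used here. Groups came from the sample labels. Genes with a mean scaled count of at least 10 (15916 of 44659) were fitted together with edgeR 4.0.16 (R 4.3.3, TMM, quasi-likelihood test, all 4 groups, 8 residual degrees of freedom), and p-values were adjusted by Benjamini-Hochberg. A gene was called at an adjusted p under 0.05, and beyond 1.5-fold with the test against that threshold. Members named with values had a mean scaled count of at least 100 or a call beyond 1.5-fold against CC, and others were named after their values were seen. From each list the 2 largest rises and 2 largest falls in TC were named among genes called beyond 1.5-fold with a mean scaled count of at least 100; ITGA11, LAMA3, KDR, DCN and KRT5 fall outside this rule and were named after their values were seen. The members and lists were chosen with earlier results of these data known. Alternatives were DESeq2 1.42.0, its size factors, library totals, the filter of a summed count of at least 2, fits of 2 groups, a replicate block, a pseudocount of 2 for ratios and leaving out each library. Counting intervals (95%) cover counting error only. Positions and coding features came from GENCODE v44 (GRCh38), promoter windows from RefSeq. The script was tested on simulated counts.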

Additional observations from a re-analysis of the deposited data

Results flagged for a closer look

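In the calls against CC, 3 collagen genes changed direction between treatment stages. The stages of these genes were then compared directly in the edgeR fit. Since the genes were picked by their opposite calls, small adjusted p-values here were largely set by that choice. They are not separate support. COL4A5, a type IV chain, was higher in TC (log2 fold change 0.72) and lower in RC (-1.06), and RC differed from TC by -1.78 (SE 0.15, adjusted p 5.2e-07). COL6A2, a collagen VI chain, was higher in PC (0.35) and lower in RC (-0.36), and RC differed from PC by -0.71 (SE 0.12, adjusted p 0.00018). Leaving out a single library ended its PC call in 3 cases and its RC call in 4. COL27A1, a fibrillar chain, was lower in TC (-0.42) and higher in PC (0.44) and RC (1.30). For COL27A1, PC differed from TC by 0.86 (SE 0.12, adjusted p 0.00033) and RC differed from TC by 1.72 (SE 0.12, adjusted p 9.7e-08). Its call in TC against CC was lost when only the 2 groups compared entered the fit (edgeR adjusted p 0.065).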

How the results depend on the processing

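The counts of collagen genes called, the summed levels and the chain ratios were each set beside their alternatives. A count was taken as unchanged within 1.5 times, a summed level within the SD of its group, and a ratio when its sign was kept. By these rules 336 of 339 cases were unchanged. Leaving out a library cannot move the mean of a summed level past that SD, so those cases were bound to be unchanged. The number lower beyond 1.5-fold in RC went from 3 to 1 without CC replicate 1 and to 1 without RC replicate 1 (range 1 to 4 when each library was left out). The COL11A1/COL11A2 ratio between RC and PC turned from 0.06 to -0.26 (log2) with a pseudocount of 2, and was not past the threshold in either case (exact permutation p 1). The causes were not tested. Leaving out each library gave 12 to 14 higher and 11 to 12 lower in TC, 12 to 14 and 11 to 12 in PC, 4 to 6 and 6 to 8 in RC, 8 to 12 and 3 to 5 for PC against TC, and 11 to 14 and 13 to 14 for RC against PC. Beyond 1.5-fold the ranges were 10 to 12 higher and 9 to 11 lower in both TC and PC, and 2 to 3 higher in RC. Of 101 calls for single named genes, 14 were lost under an alternative and 0 reversed.

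The labels tie a replicate number to no shared culture, and the numbers were not taken to pair the libraries, since same-numbered libraries had correlations of their deviations of -0.04 to 0.16, over 0.1 in 2 of 18 pairs. Different-numbered libraries reached at most 0.04, with 0 of 36 pairs over 0.1, and the 3 same-numbered pairs of TC and PC (0.16, 0.07 and 0.12) lay above that. Each of the 6 TC and PC libraries correlated best with its own number in the other group. Over all groups this held in 20 of 36 cases, and for 2 of 12 libraries in every other group. The count columns also repeat the same suffixes in every group, and the paper used paired t-tests for RT-qPCR of these stages. None of this states a shared culture, so whether the libraries are paired was not settled. With the replicate block 13 members were higher and 11 lower in TC, 14 and 12 in PC, 4 and 8 in RC, 11 and 5 for PC against TC, and 13 and 13 for RC against PC.

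Low members are limited by depth: those with under about 10 counts per library could not be tested, and COL9A1, COL13A1 and COL28A1 have wide counting intervals.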
